A study of Mus musculus with 6 samples.

Results

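The genes described here are 10 components of the circadian clock, taken by their symbols in the expression tables: the activators Arntl and Clock, the repressors Per1, Per2, Cry1 and Cry2, the nuclear receptors Nr1d1 and Rora, the output factor Dbp and the repressor Bhlhe40. They are 10 of the 18182 genes in the tables, and all 10 were among the 13353 genes tested. The members were chosen by the difference in their levels between the 2 groups below, with the fold changes of these libraries known, so their fold changes, intervals and calls describe these libraries, and the calls, which that choice favoured, are not evidence about the genes.

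RNA was sequenced from LLC-RFP cells, a red fluorescent derivative of the mouse Lewis lung carcinoma line, which had been injected under the skin of wild type C57BL/6 mice. In the LLC alone group (3 libraries) the cancer cells were injected by themselves, and in the LLC with BMSCs group (3 libraries) they were injected together with bone marrow-derived mesenchymal stem cells (BMSCs) from C57BL/6 mice. In both groups the red cells were sorted by flow cytometry from the primary tumour. The methods describe the hosts of the allograft experiments as 6-week-old female mice. Neither the labels nor the methods give the time of day at which tumours were taken, and nothing ties a library to a separate animal, so p-values measure only the spread between these libraries, which may be technical.

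In the mammalian clock, the proteins of Arntl (BMAL1) and Clock pair up and switch on genes that carry E-box sequences, among them the Per and Cry genes, whose products return to the nucleus and hold the pair back. A stabilizing loop runs beside it, in which NR1D1 (REV-ERBα) represses and the ROR receptors activate Arntl through a shared response element. Dbp is a direct target of the pair and passes the rhythm on through D-box sequences, and BHLHE40 (DEC1) competes for E-boxes and represses. In rhythmic tissue Arntl peaks roughly opposite to Nr1d1, Dbp and the Per genes.

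In the cells grown with BMSCs, the messages of the repressors, of Nr1d1 and of Dbp were lower, Arntl was moderately lower, and Bhlhe40 was higher. Of the 10 members, 7 were called lower and 1 higher by edgeR's quasi-likelihood test with Benjamini-Hochberg adjustment at 0.05, and Clock and Rora were not called, a count that the choice of members shaped and from which nothing is read. Among all tested genes 31.3% were called lower, 31.5% higher and 62.9% in either direction, which shows how much of the transcriptome differed between these libraries. The members had a median log2 fold change of -0.52 against 0.012 over all tested genes. In FPKM, the libraries of the groups did not overlap for 8 of the 10 members and for 70.6% of all tested genes. A log2 fold change of at least 1 in size was also reached by Per2, Nr1d1 and Dbp on the lower side and by Bhlhe40 on the higher side, 4 of the 10, while 15.8% of all tested genes reached it (7.17% lower and 8.65% higher). Levels below are FPKM, fragment counts divided by transcript length and by the depth of the library, listed for replicates 1, 2 and 3 of a group. Log2 fold changes are LLC with BMSCs against LLC alone, fitted on estimated counts, and carry a standard error (SE) and a 95% interval.

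**Figure D1:**
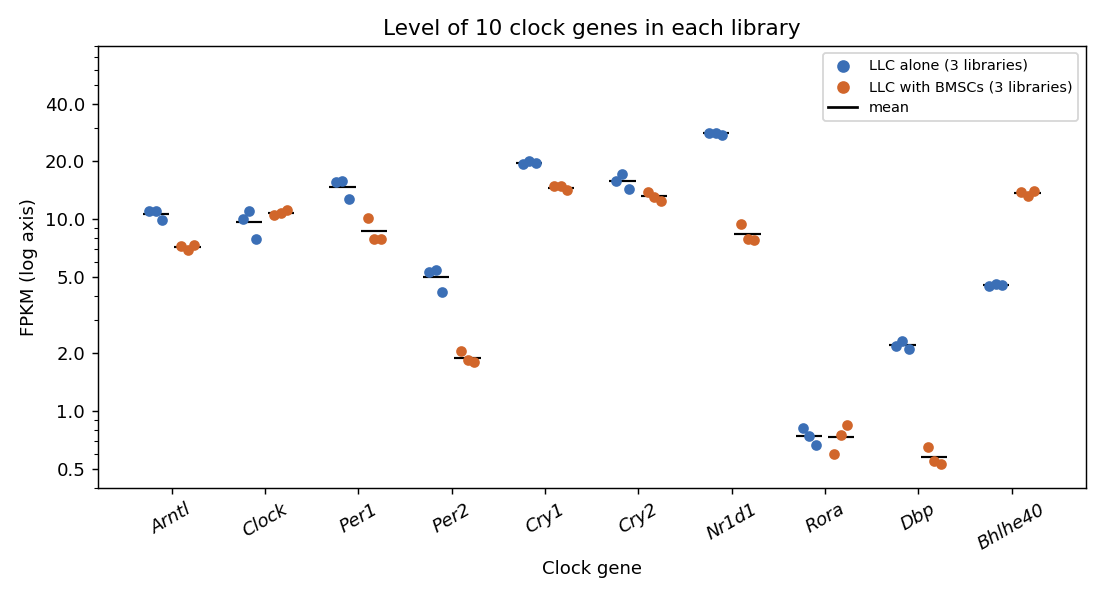
FPKM (log axis) of the 10 clock genes in each of the 3 LLC alone libraries (blue) and 3 LLC with BMSCs libraries (orange), with the group mean as a black line. The groups lie apart for 8 genes and overlap for Clock and Rora, and Bhlhe40 is the gene with the higher orange points among those 8.

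The activators did not move together. Arntl (chr7:113207465-113314126 on GRCm38, plus strand), which encodes the partner of CLOCK, stood at 11.02, 11.07 and 9.86 FPKM in LLC alone and at 7.23, 6.90 and 7.35 FPKM in LLC with BMSCs. Every library with BMSCs was below every library without. The fitted difference was -0.60 on the log2 scale (SE 0.067, interval -0.75 to -0.44), or 1.51-fold lower. Almost all of the Arntl level came from transcript NM_007489, which made up 97.9% ± 1.22 (SD, n = 3) of the gene's FPKM in LLC alone and 94.2% ± 1.98 (SD, n = 3) with BMSCs.

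Clock (chr5:76209868-76304792, minus strand), the histone acetyltransferase partner of BMAL1, was at 10.09, 11.03 and 7.90 FPKM in LLC alone and at 10.53, 10.83 and 11.12 FPKM with BMSCs. The groups overlapped, and the spread came from LLC alone replicate 3, the lowest of the 6 libraries. The fitted difference was 0.22 (SE 0.128, interval -0.08 to 0.51), an interval that leaves room for a rise of up to 0.51 but not for a fall of the size of Arntl's. With the dependence on transcript length removed the difference was -0.11. The level of Clock was spread over 6 transcripts, 3 of them assembled from these data, and NM_001289826 held 41.8% ± 7.5 (SD, n = 3) in LLC alone and 43.3% ± 4.25 (SD, n = 3) with BMSCs.

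The 4 repressors had log2 fold changes from -1.41 to -0.28 with a median of -0.61. All 4 were called lower, as were 31.3% of all tested genes, and the choice of members favoured these calls. For the repressors and Nr1d1, the stretches of promoter that hold an E-box core (CACGTG) or the related E′-box (CACGTT, which reads AACGTG on the other strand) are shown, because these letters are the sites at which the activating pair and BHLHE40 are known to bind. They are written in the direction of the gene, with the core in capitals and 20 bases on either side, from RefSeq on GRCm38.p6. The Per1 stretch is chr11:69098763-69098808 on the plus strand, with the core beginning 166 bases before a RefSeq start that lies inside the gene span given for Per1 below. The Cry1 E-box stretch is chr10:85185089-85185134 and its E′-box stretch chr10:85185108-85185153, both on the minus strand, so they overlap. The Cry2 stretch is chr2:92434210-92434255 and the Nr1d1 stretch chr11:98775380-98775425, also on the minus strand.
Per1 E-box: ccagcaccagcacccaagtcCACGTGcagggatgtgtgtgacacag
Cry1 E-box: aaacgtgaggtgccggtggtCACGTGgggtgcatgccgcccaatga
Cry1 E′-box: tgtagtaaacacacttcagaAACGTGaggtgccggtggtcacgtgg
Cry2 E′-box: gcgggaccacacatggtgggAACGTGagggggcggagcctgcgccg
Nr1d1 E′-box: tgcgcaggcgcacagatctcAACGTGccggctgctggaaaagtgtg

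Windows from 250 bases before to 50 bases after the start were at hand for 8 members, 12 windows in all since some genes have several starts, and not for Per2 and Bhlhe40. Searched on both strands and counted by gene, the E-box core was in a window of 2 of the 8 (Per1 and Cry1) and the E′-box in one of 3 (Cry1, Cry2 and Nr1d1). By gene, 8.09% and 5.44% of 27018 genes held them in any window, and 7.15% and 4.69% of all 32841 windows did. The D-box (TTATGTAA or TTACGTAA, 1.23% of genes and 1.06% of all windows) was in none of the 8. Of the element shared by NR1D1 and the RORs, only the core AGGTCA was searched (18.1% of genes and 16.3% of all windows). That core was in 3, those of Arntl, Clock and Per1. The bases that flank it in the full element were not searched, so these matches are not full elements by this search. The Dbp and Rora windows held none of these letters. A match is a description of the sequence, and its absence says only that the letters are not in that window.

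Per1 (chr11:69095217-69109960, plus strand) encodes a repressor that also responds quickly to hormonal and cAMP signals. It was at 15.72, 15.90 and 12.71 FPKM in LLC alone and at 10.21, 7.91 and 7.92 FPKM with BMSCs. The groups were apart, and within each group 1 library stood off, replicate 3 on the low side in LLC alone and replicate 1 on the high side with BMSCs. The fitted difference was -0.77 (SE 0.121, interval -1.05 to -0.48), or 1.70-fold lower. The annotated transcript NM_011065 held 81.0%, 75.7% and 76.6% of Per1 FPKM in LLC alone and 76.3%, 57.0% and 61.9% with BMSCs, so the groups overlapped, and 3 assembled transcripts held the rest.

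Per2 (chr1:91415982-91459324, minus strand), a Period repressor needed for sustained rhythms in mice, was at 5.28, 5.47 and 4.18 FPKM in LLC alone and at 2.05, 1.84 and 1.81 FPKM with BMSCs. The lowest LLC alone library was still above the highest library with BMSCs. The fitted difference was -1.41 (SE 0.112, interval -1.67 to -1.14), or 2.65-fold lower, the widest among the 4 repressors. Within a library, Per1 was higher than Per2 by a log2 ratio of 1.57 ± 0.0325 (SD, n = 3) in LLC alone and 2.18 ± 0.116 (SD, n = 3) with BMSCs. The 2 sets of ratios did not overlap, and in these libraries Per2 was lower by more than Per1.

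The cryptochromes, the stronger inhibitors of the activating pair, differed less. Cry1 (chr10:85131700-85185064, minus strand) was at 19.48, 20.04 and 19.58 FPKM in LLC alone and at 14.82, 14.89 and 14.20 FPKM with BMSCs. Replicates of Cry1 lay close together, so that a fitted difference of -0.45 (SE 0.0535, interval -0.57 to -0.32), or 1.37-fold lower, stood clear of the spread. Cry2 (chr2:92403646-92434043, minus strand) was at 15.75, 17.27 and 14.40 FPKM in LLC alone and at 13.89, 13.08 and 12.49 FPKM with BMSCs, a narrow gap between the groups. Its fitted difference was -0.28 (SE 0.0806, interval -0.47 to -0.10), or 1.22-fold lower, the smallest among the called members, and the call was lost without replicate 2 of LLC with BMSCs (-0.28), without replicate 3 of that group (-0.25) and with closely alike replicates summed (-0.23).

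Nr1d1 (chr11:98767932-98775333, minus strand), which encodes the heme-binding repressor of Arntl, was the most abundant member in LLC alone. It was at 28.29, 28.27 and 27.40 FPKM there and at 9.49, 7.93 and 7.83 FPKM with BMSCs. The fitted difference was -1.75 (SE 0.0863, interval -1.95 to -1.55), or 3.37-fold lower. The 3′ end of Nr1d1 runs into that of Thra, the thyroid hormone receptor α gene on the opposite strand, and the annotated exons share 263 bases. Counts of Nr1d1 and Thra were not whole numbers, but their sum was whole in every library, so fragments had been divided between them, and whether strand was used is not stated. The sum was 4705, 3388 and 4480 fragments in LLC alone and 2645, 2296 and 2245 with BMSCs, of which Nr1d1 was given 75.4% to 76.6% and 41.3% to 43.4%. For the sum the log2 fold change was -0.90 (SE 0.0742), while for Thra alone it was 0.36 (SE 0.07). The pair as a whole was thus also lower, by less than the value for Nr1d1 alone.

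Rora (chr9:68653786-69388246, plus strand), which encodes an activator of Arntl, was barely expressed, at 0.82, 0.74 and 0.67 FPKM in LLC alone and 0.60, 0.75 and 0.85 FPKM with BMSCs. The groups overlapped, and the fitted difference of 0.24 (SE 0.131, interval -0.06 to 0.55) was not called. It was -0.08 with the dependence on transcript length removed. Transcript NM_001289916 held 61.2% to 79.7% of Rora FPKM in LLC alone and 72.0% to 96.7% with BMSCs, ranges that overlapped.

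Dbp (chr7:45705088-45710203, plus strand) had the lowest mean level of any member with BMSCs, in a range that overlapped that of Rora, and the widest fitted difference. It was at 2.18, 2.33 and 2.10 FPKM in LLC alone and at 0.65, 0.55 and 0.53 FPKM with BMSCs. These levels rested on estimated counts of 162.09, 125.61 and 156.19 in LLC alone and 46.93, 38.84 and 37.50 with BMSCs. The fitted difference was -1.94 (SE 0.132, interval -2.25 to -1.63), or 3.83-fold lower, and 6.55% of tested genes differed by as much or more in size. That interval overlapped the one of Nr1d1 (-1.95 to -1.55). With the length dependence removed, the differences were -1.78 for Dbp and -1.74 for Nr1d1. Dbp shares 539 exon bases with Sphk2, a sphingosine kinase gene on the opposite strand that was given most of the pair's fragments. The sum of Dbp and Sphk2 was 1679, 1135 and 1594 fragments in LLC alone and 1050, 911 and 979 with BMSCs, whole in every library, and Dbp was given 9.65% to 11.1% and 3.83% to 4.47% of it. For the sum the log2 fold change was -0.68 (SE 0.0683) and for Sphk2 alone -0.58 (SE 0.0703). The pair was lower as a whole, but most of its fragments were given to Sphk2, so the sum says little about Dbp. How the shared fragments were divided bears on the value for Dbp alone.

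**Figure D2:**
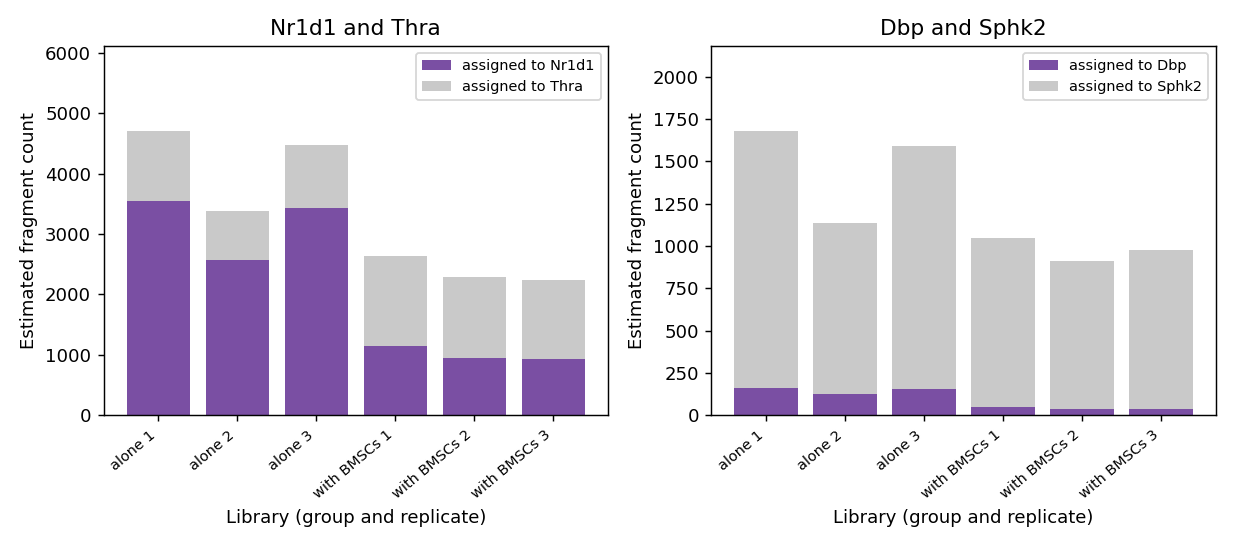
Estimated fragment counts of Nr1d1 with Thra (left) and Dbp with Sphk2 (right) in each library, stacked, with the share given to the clock gene in purple and that of its neighbour in grey. Both the sums and the purple shares are lower in the LLC with BMSCs libraries, and Dbp is a small part of its pair throughout.

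Bhlhe40 (chr6:108660629-108666925, plus strand) moved opposite to the other called members. It was at 4.51, 4.59 and 4.57 FPKM in LLC alone and at 13.84, 13.15 and 14.07 FPKM with BMSCs. Replicates were tight in both groups and far apart between them, and the fitted difference was 1.57 (SE 0.0567, interval 1.43 to 1.70), or 2.96-fold higher. BHLHE40 is known as a hypoxia target as well as a clock repressor. Of 15 tested genes of a hypoxia list, 9 were called higher and 2 lower, or 73.3%, against 62.9% of all tested genes. Beside targets, the list holds Hif1a (-0.36, called lower) and Arnt (0.18, not called), which encode subunits of the hypoxia-inducible factor itself. The 15 had a median log2 fold change of 0.62. Pgk1, a glycolytic enzyme and the most abundant of them, had a difference of 0.14 (adjusted p = 0.0566, edgeR's quasi-likelihood test with Benjamini-Hochberg adjustment), and Bnip3, a mitophagy receptor, rose by 1.77. Whether the Bhlhe40 difference was tied to those of the listed hypoxia genes was not tested.

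**Figure D3:**
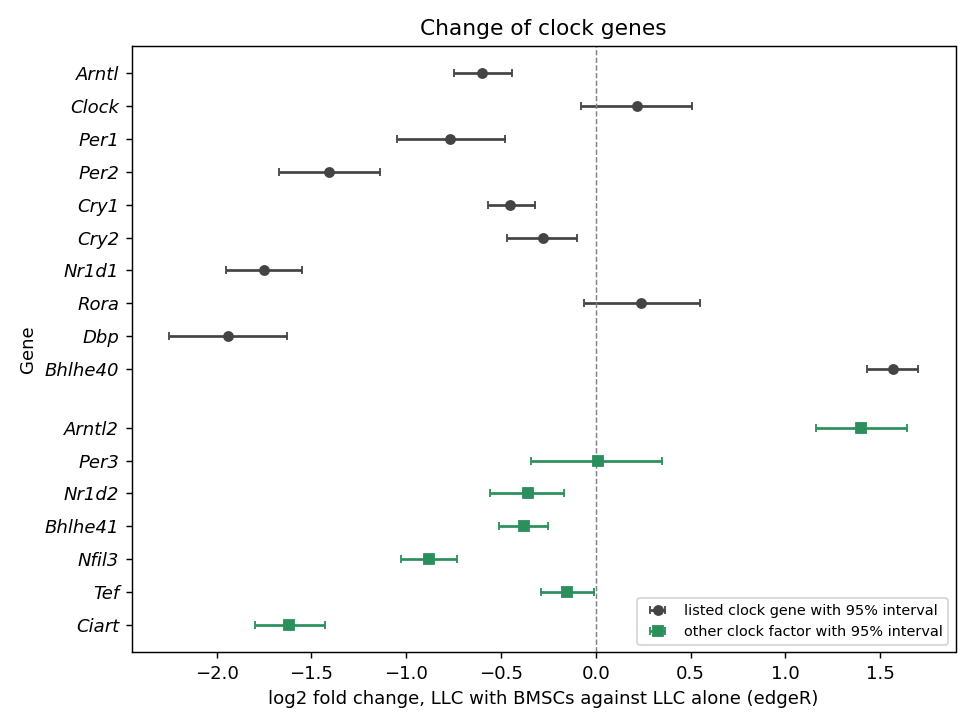
Log2 fold change of LLC with BMSCs against LLC alone with its 95% interval for the 10 listed clock genes (grey circles) and 7 further clock factors that were tested (green squares). Bhlhe40 at 1.57 and Arntl2 at 1.40 lie far to the right, Nr1d1, Dbp, Per2 and Ciart lie beyond -1, and the intervals of Clock, Rora and Per3 cross 0.

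The order of the members by level changed between the groups, read on the FPKM scale, which divides by transcript length. In LLC alone it ran Nr1d1, Cry1, Cry2, Per1, Arntl, Clock, Per2, Bhlhe40, Dbp and Rora. In this order the library ranges of Cry2 and Per1 overlapped, as did those of Arntl and Clock and of Per2 and Bhlhe40. With BMSCs it ran Cry1, Bhlhe40, Cry2, Clock, Per1, Nr1d1, Arntl, Per2, Rora and Dbp, with overlap between Bhlhe40 and Cry2, Per1 and Nr1d1, and Rora and Dbp. Nr1d1 went from position 1 to position 6 and Bhlhe40 from position 8 to position 2. The positions of Nr1d1 and Dbp rest on levels as deposited, which depend on how fragments shared with Thra and Sphk2 were divided.

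Because the members are read from the same library, their ratios show how the balance between arms of the loop differed. The log2 ratio of Arntl to Nr1d1 was -1.40 ± 0.0683 (SD, n = 3) in LLC alone and -0.23 ± 0.152 (SD, n = 3) with BMSCs, a shift of 1.17 toward Arntl. Arntl to Dbp went from 2.27 ± 0.0572 to 3.64 ± 0.159, and Arntl to Per2 from 1.11 ± 0.117 to 1.92 ± 0.102 (SD, n = 3 each). These 3 ratios did not overlap between the groups. How often ratios of other gene pairs lie apart was not counted, and the FPKM of 70.6% of all tested genes did so. With the fragments of overlapping genes summed, the log2 ratio of counts of Arntl to Nr1d1 and Thra went from -1.72 ± 0.0588 to -1.41 ± 0.117, a shift of 0.31 without overlap. That of Arntl to Dbp and Sphk2 went from -0.21 ± 0.0978 to -0.13 ± 0.0616 (SD, n = 3 each), a shift of 0.08 with overlap. These sums hold all fragments of Thra and Sphk2, not only the shared ones, so the smaller shifts do not isolate the division. How far the shifts against Nr1d1 and Dbp depend on how shared fragments were divided was not tested. Arntl to Per1 was -0.47 ± 0.0874 in LLC alone and -0.27 ± 0.204 with BMSCs and did overlap. In this ratio, a difference between Arntl and Per1 in how far they were lower could not be told from the spread. Clock to Cry1 went from -1.04 ± 0.237 to -0.44 ± 0.0732 (SD, n = 3 each) without overlap. Arntl relative to Per2 and Clock relative to Cry1, which have no such overlap, were higher with BMSCs, although Arntl itself was lower. The ratios were not recomputed with the dependence on transcript length removed. In the edgeR fit with it removed, log2 fold changes were -0.11 for Clock and -0.47 for Cry1, and -0.60 for Arntl, -0.93 for Per1 and -1.62 for Per2. Without replicate 3 of LLC alone, the Clock to Cry1 shift was 0.47 instead of 0.60. Cry1 to Cry2 moved little, from 0.32 ± 0.115 to 0.16 ± 0.0534 (SD, n = 3 each), also without overlap.

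**Figure D4:**
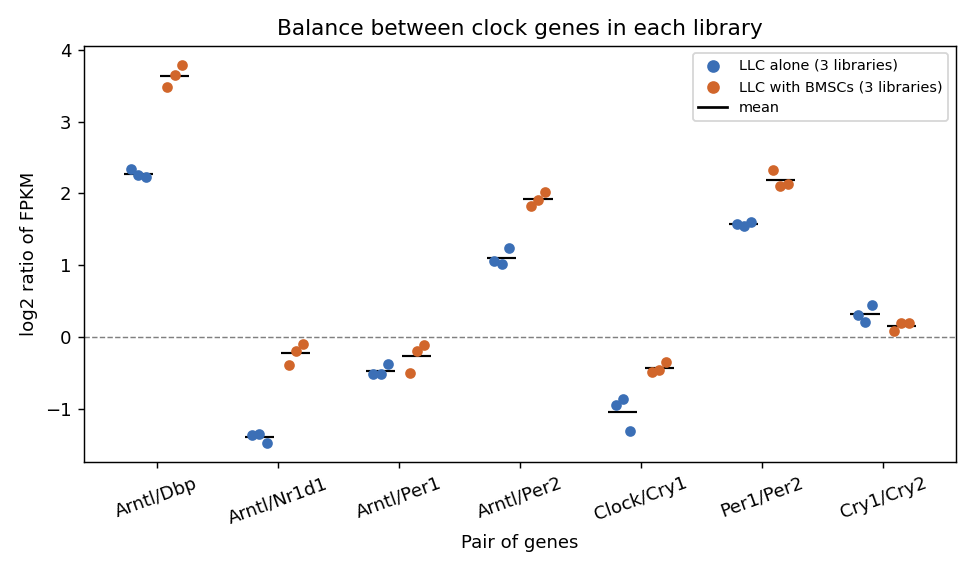
Log2 ratio of the FPKM of 2 clock genes in the same library, for 7 pairs, in LLC alone (blue, 3 libraries) and LLC with BMSCs (orange, 3 libraries), with the group mean as a black line. Arntl to Dbp, Arntl to Nr1d1 and Arntl to Per2 are higher in every orange library, and Arntl to Per1 overlaps. The first 2 of these use Dbp and Nr1d1 levels as deposited, and their shifts are 0.08 and 0.31 with the overlapping genes summed.

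Replicates also differed from each other in several members at once. Replicate 1 of LLC with BMSCs was above its group mean on the log2 scale by 0.24 for Per1, 0.19 for Nr1d1, 0.18 for Dbp, 0.12 for Per2 and 0.09 for Cry2, and by 0.03 for Arntl. Replicate 3 of LLC alone was below its group mean by 0.33 for Clock, 0.26 for Rora, 0.23 for Per2 and 0.19 for Per1. That library also read short transcripts relatively high and long ones low. Its genes of up to 1585 bases were above the mean of all libraries by a median log2 value of 0.31, and its genes of 4850 bases or more had a median of -0.37. Clock, Rora, Per2 and Per1 have mean transcript lengths of 9365, 8799, 5845 and 4860 bases, all in the latter class. The part of length in these deviations was not tested beyond the fit with the length dependence removed, in which all 8 called members were still called in the same direction. The LLC with BMSCs libraries leaned the other way, with medians of -0.19, -0.09 and -0.11 for the short genes and 0.18, 0.1 and 0.13 for the long ones. Replicates 1 and 2 of LLC alone had 0.06 and 0.04 for the short genes and -0.02 and 0 for the long ones. The length dependence thus differed between the groups as well.

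A list of 10 further clock factors, mostly of the same families, was read beside them, of which Rorb was not in the tables and Npas2 and Hlf had FPKM of at most 0.01. Of the 7 that were tested, 4 were called lower and 1 higher, or 71.4%, against 62.9% of all tested genes. Their median log2 fold change was -0.36. Arntl2 (BMAL2), a paralogue that can stand in for BMAL1 as partner of CLOCK, rose from 5.44, 5.73 and 5.19 FPKM in LLC alone to 11.3, 12.9 and 12.76 FPKM with BMSCs. Its log2 fold change was 1.40 (SE 0.103, adjusted p = 2.08e-05 by edgeR's quasi-likelihood test with Benjamini-Hochberg adjustment), opposite to that of Arntl, and the groups were far apart. Ciart (CHRONO), an E-box repressor bound by BMAL1, fell from 20.5, 19.26 and 22.55 FPKM to 5.99, 7.06 and 6.47 FPKM, by 1.62 on the log2 scale (SE 0.0796, adjusted p = 2.85e-06 in the same edgeR test). Its counts were not whole numbers in 5 libraries and may be divided with another gene. Unlike for Nr1d1 and Dbp, no protein-coding gene was found to share annotated exon bases with Ciart.

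The promoter window of Ciart held 3 E-box cores, beginning 116, 58 and 44 bases before the start, more than any member's window. The first 2 are shown beside the Per1 and Cry1 stretches above, in the same form (chr3:95882319-95882364 and chr3:95882261-95882306, minus strand, GRCm38.p6).
Ciart E-box at -116: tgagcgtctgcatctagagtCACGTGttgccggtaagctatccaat
Ciart E-box at -58: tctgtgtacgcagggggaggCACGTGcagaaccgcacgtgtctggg

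Nfil3 (E4BP4), the repressor that competes with DBP for D-boxes, fell from 36.13, 37.24 and 38.19 FPKM to 21.57, 20.55 and 19.40 FPKM, by 0.88 on the log2 scale (SE 0.0644, adjusted p = 2.03e-05 in the same edgeR test). The antagonists Nfil3 and, at its level as deposited, Dbp were therefore both lower. Of the other PAR bZIP factors, which bind the same D-boxes, Tef was at 15.3 ± 0.731 FPKM (SD, n = 3) and at 14.0 ± 0.372 FPKM (SD, n = 3) with BMSCs, a difference of -0.15 that was not called (adjusted p = 0.0634) but was with the length dependence removed (-0.26), with upper-quartile scaling (-0.18) and without replicate 3 of LLC alone (-0.17). Tef was thus far more abundant in both groups than Dbp as deposited, whose level depends on how fragments were divided with Sphk2. Nr1d2 (REV-ERBβ) fell by 0.36 (SE 0.0835, adjusted p = 0.00608), a call that was lost with closely alike replicates summed (adjusted p = 0.0583) and a difference that was -0.55 with the length dependence removed. At 11.5 ± 0.478 FPKM (SD, n = 3) with BMSCs, Nr1d2 was above Nr1d1, which was at 8.42 ± 0.931 FPKM (SD, n = 3) as deposited. That Nr1d1 level depends on how fragments were divided with Thra. Bhlhe41 (DEC2), the paralogue of Bhlhe40, fell by 0.38 (SE 0.055, adjusted p = 0.000604), or by 0.62 with the length dependence removed, so the DEC genes went in opposite directions. Per3 was at 1.37, 1.27 and 0.92 FPKM and, with BMSCs, at 1.26, 1.24 and 1.11 FPKM, with overlap. Its difference was 0.01 with an interval of -0.34 to 0.35, which does not reach the values of Per1 and Per2, and was -0.21 with the length dependence removed.

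Of the 22 tested modifiers of clock proteins (kinases, ubiquitin ligases and cofactors), 5 rose, 5 fell and 12 were not called, with a median log2 fold change of -0.03. Id2, an inhibitor of helix-loop-helix factors that can blunt the CLOCK and BMAL1 pair, fell by 2.71 (SE 0.11, adjusted p = 1.11e-06, edgeR). Fbxl21, a ubiquitin ligase subunit for the cryptochromes, rose by 0.97 (SE 0.156, adjusted p = 0.00108, edgeR) at levels under 1.10 FPKM. Of 11 tested genes that often follow the clock in other tissues, 6 fell, 2 rose and 3 were not called, with a median of -0.40. Klf10 fell by 1.11 (SE 0.0595), Tsc22d3 (GILZ), which is also a glucocorticoid target, fell by 0.85 (SE 0.107), and Tspan4 fell by 0.63 (SE 0.0876). Lonrf3 had 0 counts in LLC alone and 49, 33 and 36 counts with BMSCs, at least 12.0-fold higher against a floor of 3 counts per library. Among all 40 of these other regulators tested 57.5% were called, against 62.9% of all tested genes.

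Per1, Tsc22d3 and Bhlhe40 are also reached by signals outside the clock, and lists for these were read beside them. Of 10 tested genes of a glucocorticoid list, which holds the receptor gene Nr3c1 beside targets, 3 were called higher and 5 lower, with a median of -0.38. Of 10 tested targets of cAMP and serum signals 4 were called higher and 2 lower, with a median of 0.03. The shares called were 80% and 60%, against 62.9% of all tested genes. In the first list the gene with the most counts over both groups, the kinase Sgk1, rose by 0.90 and the stress-induced Ddit4, which had more counts than Sgk1 in LLC alone, fell by 0.97. The widest fitted difference was that of Hsd11b1, at 3 counts or fewer in LLC alone and 12 to 17 counts with BMSCs. In the second the most abundant gene, Junb, had a difference of -0.17, and Egr1 had at most 2 counts in LLC alone and 69 to 91 with BMSCs. The lists did not move one way, and their part in the clock gene differences was not tested.

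Over the 6 libraries, the genes whose log2 levels ran most like Arntl were Ctnna1 (Pearson's r = 0.9991), Dnajb4 (0.9987) and Bcl6 (0.9986), and those most like Dbp were Osbpl2 (0.9995), Slc38a7 (0.9995) and Plcl1 (0.9994). With 6 points in 2 groups such values are common: 1334 of 12705 genes reached 0.95 with Arntl and 1847 of 12705 with Dbp. They are a description of shared level and nothing more.

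The libraries held 33476347 to 46189113 estimated counts each. Of the epithelial markers listed for the carcinoma cells, Krt8 was present (95.3 and 110 FPKM in the 2 groups), Krt18 was at 0.0833 and 0.653 FPKM, and Epcam, Cdh1, Krt7 and Krt19 stayed at or below 0.05 FPKM. Both epithelial markers that were tested, Krt8 and Krt18, were called higher with BMSCs, by 0.19 and 2.91 on the log2 scale. Of all tested genes, 31.5% were called higher and 31.3% lower. All 11 tested stromal markers were called higher with BMSCs, their summed level going from 370–433 to 817–866 CPM (counts scaled to library size), with Thy1 and Cxcl12 at 0 in LLC alone. The sum hides unequal sizes. Col3a1, the most abundant of these markers, rose by 1.26, and Col1a1, with the widest difference, rose by 7.14 from at most 4 counts in a library. Neutrophil markers (4 of 4 tested higher) went from 0.436–0.72 to 16.7–19.8 CPM, macrophage markers (4 of 7 higher, 2 lower) from 21.8–26.1 to 26.2–28.5 with Adgre1 and C1qa at 0 in LLC alone, and erythroid markers (2 of 3 higher) from 7.7–8.34 to 10.4–11.4. Endothelial markers went from 0.69–0.877 to 0.927–1.08, and lymphocyte markers from 0.218–0.263 to 0.157–0.246 with none tested. The 10 clock genes summed to 398–468 and 334–356 CPM. The part of other cells in the clock gene differences was not tested, and in bulk libraries fewer cells of a type and less RNA per cell cannot be told apart.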

How the data were processed

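Estimated counts and FPKM of genes and transcripts were deposited for each of the 6 libraries. The processing notes name HISAT, StringTie, Cufflinks, GATK and the build mm8, with no role given. The authors' FPKM are fragment counts divided by transcript length and library depth, and the deposited estimated counts were not whole for 21.9% to 23.2% of the listed genes in a library. A gene that a library did not list was taken as 0. Strand use in counting is not given in the sources used here. Counts were rounded, low genes filtered with edgeR's default rule, scaled by TMM and tested with edgeR 4.0.16 (R 4.3.3, quasi-likelihood, Benjamini-Hochberg at 0.05) on the 3 LLC alone and 3 LLC with BMSCs libraries with no covariate. The length dependence was removed with a lowess curve per library (span 0.3). The code of the fits was tested on simulated counts. Alternatives used DESeq2 1.42.0 and limma 3.58.1 on log2(FPKM + 1) or log2(FPKM + 0.1). An exact permutation test of 3 against 3 libraries cannot give a p below 0.1, so none is reported. Gene positions come from GENCODE M21 on GRCm38, a later build than the one the notes name. The members and all gene lists were chosen with earlier results of these data known. The genes named are the 10 members, 10 further clock factors, other regulators that were called with a log2 fold change of at least 0.58 in size, the leading genes of the context lists, and the 3 genes most like Arntl and Dbp. A further item is not reported here. The number of tumours behind each library is not given.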

Additional observations from a re-analysis of the deposited data

How the results depend on the processing

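Over 17 alternatives (other scalings, filters, tools and pseudocounts, a length correction, summed replicates, a fold limit and libraries left out), the member counts, 7 lower and 1 higher, moved by over 1.5 times in 1: with a log2 fold change of 1 also required, 3 members were lower, and of the other regulators 3 were lower and 2 higher. Leaving out 1 library gave 6 to 7 members lower and 1 higher, and 14 to 19 other regulators lower and 8 to 9 higher. Direction turned for genes that were not called: with the length dependence removed Clock was -0.11, Rora -0.08 and Per3 -0.21, and Per3 was -0.02 with upper-quartile scaling, and from -0.15 to 0.12 with 1 library left out, -0.15 being without replicate 3 of LLC alone, -0.03 without replicate 1 and -0.01 without replicate 2 of LLC with BMSCs. The summed counts of overlapping genes, added after seeing the data, gave -0.90 for Nr1d1 with Thra and -0.68 for Dbp with Sphk2, and shifts of 0.31 and 0.08 in the ratios of Arntl to these sums. The causes were not tested. Same-numbered libraries deviated with correlations of 0.08, -0.11 and 0.06. These values show no pairing by number but cannot exclude it, because in each group 1 library stood off from the others. A fit with the replicate block called 7 members lower and 1 higher, and 14 other regulators lower and 9 higher. Replicates 1 and 2 of LLC alone differed by a chi-square of 2.34 per gene, against 28.5 and 29.7 for replicate 3, and replicates 2 and 3 of LLC with BMSCs by 1.49, against 9.43 and 9.66 for replicate 1.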
